A study of Danio rerio with 13 samples.

Results

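The ionotropic and metabotropic glutamate receptor genes of the zebrafish brain were taken from the counts table by their zebrafish Ensembl name. A gene was a member if its name, with letter case ignored, started as a numbered gria, grik, grin or grm gene or as grin or grid1. The 41 genes described here are among the 32105 in the table. Of these, 39 encode a receptor subunit, namely 8 of AMPA receptors, 5 of kainate receptors, 13 of NMDA receptors, 2 of delta receptors, and 2, 3 and 6 metabotropic receptors of groups I, II and III. The remaining 2, GRINA and grinab, share the letters of the name but encode no receptor subunit, and were kept apart from the classes. All 41 passed the filter on low counts, so no member was left out of the tests. Symbols are spelled as in the name table used, where many zebrafish genes carry the capital letters of their human counterpart. Where 2 zebrafish genes share a symbol, the last 5 digits of the Ensembl identifier tell them apart, and it was not assumed which of them is the a or the b copy. GRIK2 had no row in the table and was not analysed here.

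RNA sequencing was performed on brains of 13 male zebrafish of the AB strain aged 3 months, each fish giving 1 library. The 3 tert-/- fish were homozygous and the 5 tert+/- fish heterozygous for a mutant allele of tert, the gene of the catalytic subunit of telomerase, and the 5 wild-type fish carried no mutant allele. The mutant line is tert hu3430, a nonsense allele present in every cell of the fish, so the brain as a whole was mutant and no cell type was targeted. The study used tert mutants as a model of telomeric ageing, and the question put to these genes was which subunits the brain used and whether their RNA differed with genotype. The wild-type libraries served as reference for both mutant genotypes, so the comparisons share them. Libraries are named by genotype and a number that pairs no fish with another, and values below follow that number within each genotype. The labels give no litter or dissection, and p-values measure the spread between these fish.

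Glutamate is the main excitatory transmitter of the vertebrate brain. AMPA, kainate and NMDA receptors are ion channels built of several subunits that carry fast synaptic current, and NMDA receptors also need glycine or D-serine bound to GRIN1 before they open. Delta receptors resemble these channels in sequence but act largely as adhesion and signalling proteins that bind cerebellins at synapses. Metabotropic receptors couple to G proteins, those of group I to phospholipase C, and those of groups II and III to inhibition of adenylyl cyclase, often at the presynaptic terminal. Most of these genes are present as a pair of copies in zebrafish, after the genome duplication of teleost fish.

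The libraries held 22008289 to 32380953 counts. TERT itself (ENSDARG00000042637) had 10.4, 3.96 and 9.71 CPM in tert-/- brains, 8.8, 5.04, 5.1, 3.61 and 5.92 CPM in tert+/- brains and 3.88, 2.24, 1.98, 2.09 and 2.54 CPM in wild-type brains. Wild-type brains had the lowest values apart from wild type 1, which lay within the tert+/- range. The log2 fold change was 1.66 ± 0.34 for tert-/- and 1.16 ± 0.30 for tert+/- against wild type, with adjusted p = 0.573 and 0.602 in edgeR's quasi-likelihood test and 0.00629 and 0.065 in DESeq2. A nonsense allele need not lower RNA, so the level of tert RNA does not check the labels. Neuronal RNA was even, with the level of 12 pan-neuronal markers between -0.12 and 0.12 on a log2 scale centred over the libraries. RNA of brain regions was not. The level of 14 cerebellar genes (granule and Purkinje cell markers) was 1.11, -1.13 and 0.10 in tert-/- brains, 1.01, -0.33, 0.26, -1.80 and -0.28 in tert+/- brains, and 0.50, 0.12, 0.14, 0.49 and -0.21 in wild-type brains. Libraries tert-/- 1 and tert+/- 1 therefore stood at the cerebellar end and tert-/- 2 and tert+/- 4 at the other, while the wild-type libraries lay between them. Most or least cerebellar RNA refers to this mean log2 level below. Summed over the 14 genes, the low end differed, with 3252 CPM in wild type 5, 3303 CPM in tert+/- 4 and 3374 CPM in tert-/- 2. The values of cbln12, a cerebellar cerebellin, were 427, 18.7 and 169 CPM in tert-/- brains, 442, 71.5, 164, 2.6 and 112 CPM in tert+/- brains and 220.1, 168, 191, 274 and 74 CPM in wild-type brains. Telencephalic markers and the hox genes of hindbrain and spinal cord also differed between libraries, from -1.40 to 1.54 and from -2.71 to 2.76. Photoreceptor RNA, summed over 39 genes, was 11.3 to 15.3 CPM in tert-/-, 15.1 to 333 CPM in tert+/- and 14.7 to 739 CPM in wild-type libraries, and was highest in wild type 5, tert+/- 3 and wild type 1. Wild type 2, 3 and 4 had 16.1, 17.6 and 14.7 CPM, near the tert-/- range. Of the 24 photoreceptor genes tested, 11 were lower in tert-/- against wild type at unadjusted p under 0.05, with a median log2 fold change of -2.80 over the 24. Skeletal muscle RNA, summed over 18 genes, was 149.9 to 307 CPM in tert-/-, 108 to 635 CPM in tert+/- and 86.4 to 194 CPM in wild-type libraries, and 9 of the 17 genes tested were higher in tert+/- against wild type at unadjusted p under 0.05, with a median log2 fold change of 0.92. Of all genes, 2.14% had an unadjusted p under 0.05 in either direction in tert-/- against wild type and 7.74% in tert+/- against wild type. None of these marker genes was called after adjustment in these comparisons. The part of these RNAs in the receptor values was not tested. Intestinal and pancreatic RNA was higher in all 5 tert+/- libraries (31.2 to 61.3 CPM summed over 14 genes) than in tert-/- (19.9 to 26.8 CPM) and wild-type libraries (17.0 to 24.1 CPM). In whole-brain RNA, fewer cells of a type and less RNA per cell cannot be told apart. CPM stands for counts scaled to library size alone.

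Levels are given as RPKM, reads per kilobase of gene length scaled to the size of the library, so that genes of different length can be compared. The 39 receptor genes summed to 1117 ± 46.1 RPKM (SD, n = 13). NMDA receptor genes took 43.0% ± 1.28 of this sum, AMPA receptor genes 39.0% ± 1.07, group III metabotropic genes 8.42% ± 0.96 and group II genes 3.50% ± 0.61. Kainate receptor genes, measured without GRIK2, took 2.78% ± 0.37. The GRID1 genes of the delta class took 1.70% ± 0.13 and the GRM5 genes of group I 1.67% ± 0.55. The level was concentrated in few genes. GRIN1-27828, GRIA2-52765 and GRIN1-25728 together held 47.2% of it, and with GRIA2-70173 and GRIA3-37498 the share was 61.1%. Only the first 3 of these genes averaged above 100 RPKM, 19 lay between 10 and 100 RPKM and 17 below 10 RPKM. The mean of the highest gene was 934 times that of the lowest, GRM5-02067. In the order of mean levels, 38 neighbours could be compared within libraries. For 10 of them the mean log2 ratio was larger than its SD, and in 7 the higher gene was higher in every library, so most neighbours in the order did not differ beyond their spread. The coefficient of variation over the 13 libraries had a median of 19.5%, and 2 genes exceeded 40%, namely GRM5-02067 and GRIN2C-78149.

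**Figure D1:**
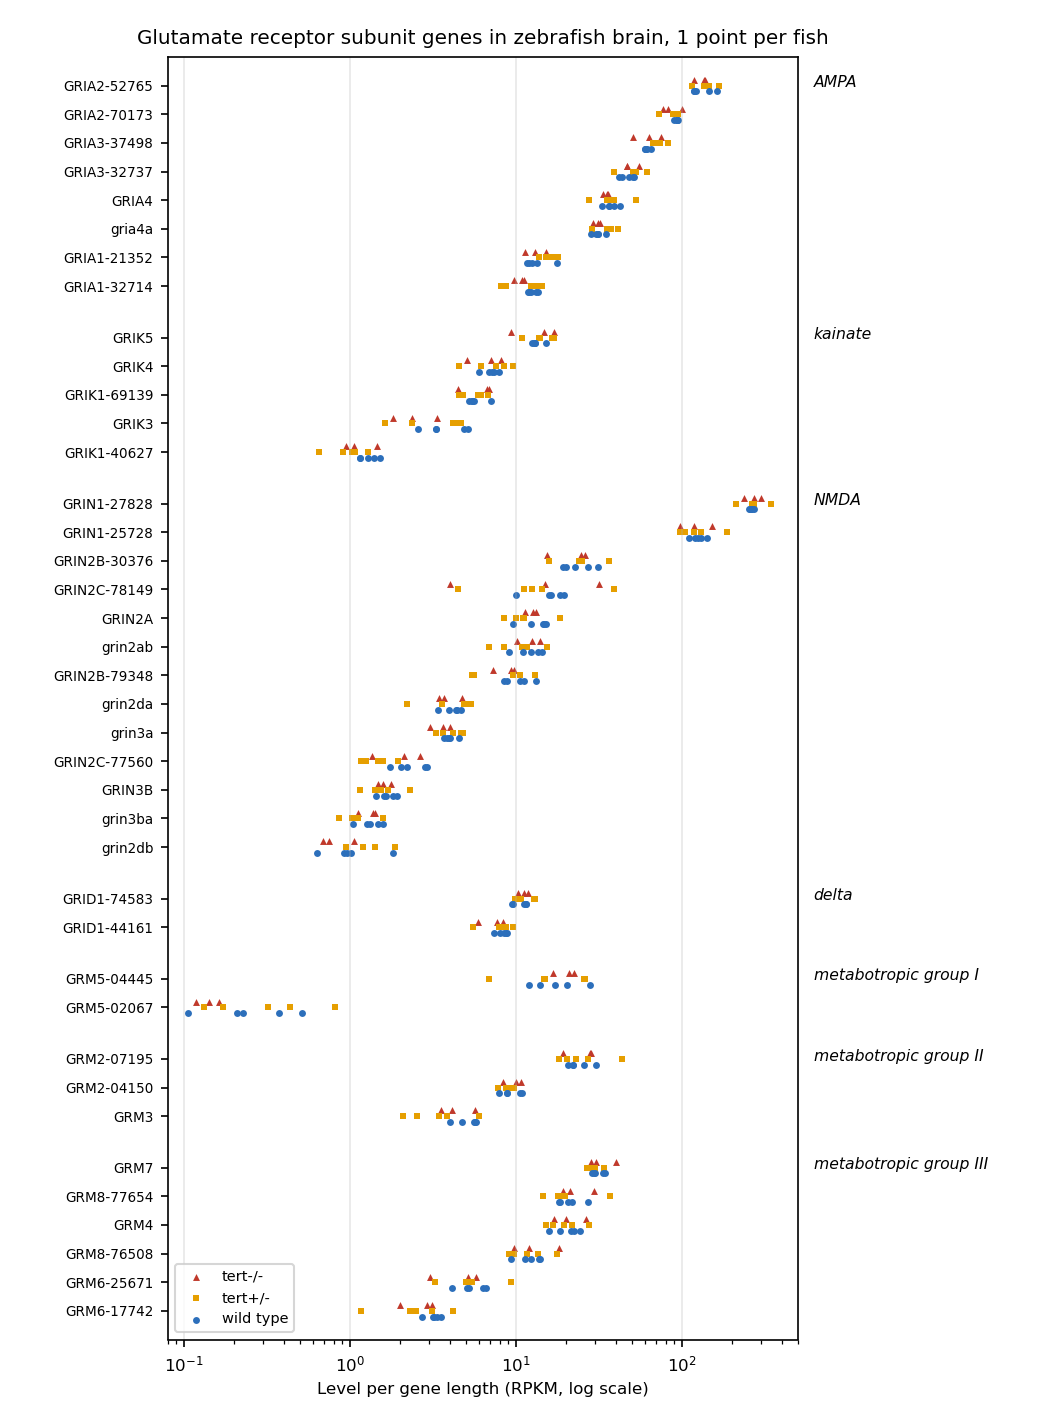
Level of each of the 39 receptor subunit genes in RPKM (log axis), grouped by class and ordered by mean, with 1 point per fish and the genotypes as triangles (tert-/-), squares (tert+/-) and circles (wild type). GRIN1-27828 averaged 267 RPKM and GRM5-02067 0.29 RPKM, and the points of the genotypes overlap in nearly every row.

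No receptor gene differed between genotypes after adjustment. With edgeR's quasi-likelihood test and Benjamini-Hochberg adjustment over all 20064 genes tested, 0 of 41 members were called in tert-/- against wild type, in tert+/- against wild type and in tert-/- against tert+/-, where the background was 0% in each. DESeq2 also called 0 members, against 0.0593%, 0.104% and 0.063% of all genes in the same order. Without adjustment, 0 of 41 members had p under 0.05 in tert-/- against wild type, where 2.14% of all genes did, and DESeq2 gave 0 (background 2.3%). In tert+/- against wild type there were 3 of 41 (7.32%), where 7.74% of all genes did, and DESeq2 gave 4 (background 7.34%). Between tert-/- and tert+/- there was 1 of 41 (2.44%), where 4.62% of all genes did, and DESeq2 gave 1 (background 4.36%). Groups that did not overlap at all were found for 1 of 41 members in tert-/- against wild type (background 2.17%), 1 in tert+/- against wild type (background 1.7%) and 0 in tert-/- against tert+/- (background 2.4%). The shares of members were thus near or below those of all genes. The median log2 fold change of the members was -0.04 in tert-/- and 0.03 in tert+/- against wild type, beside 0.00 over all genes in both comparisons. In tert-/- against wild type 38 of 41 members, and in tert+/- against wild type 37, lay within 0.3 of 0 on the log2 scale. A slope over 0, 1 and 2 mutant alleles called 0 members (background 0%), with 0 at unadjusted p under 0.05 (background 2.16%) and a lowest unadjusted p of 0.112 in edgeR.

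**Figure D2:**
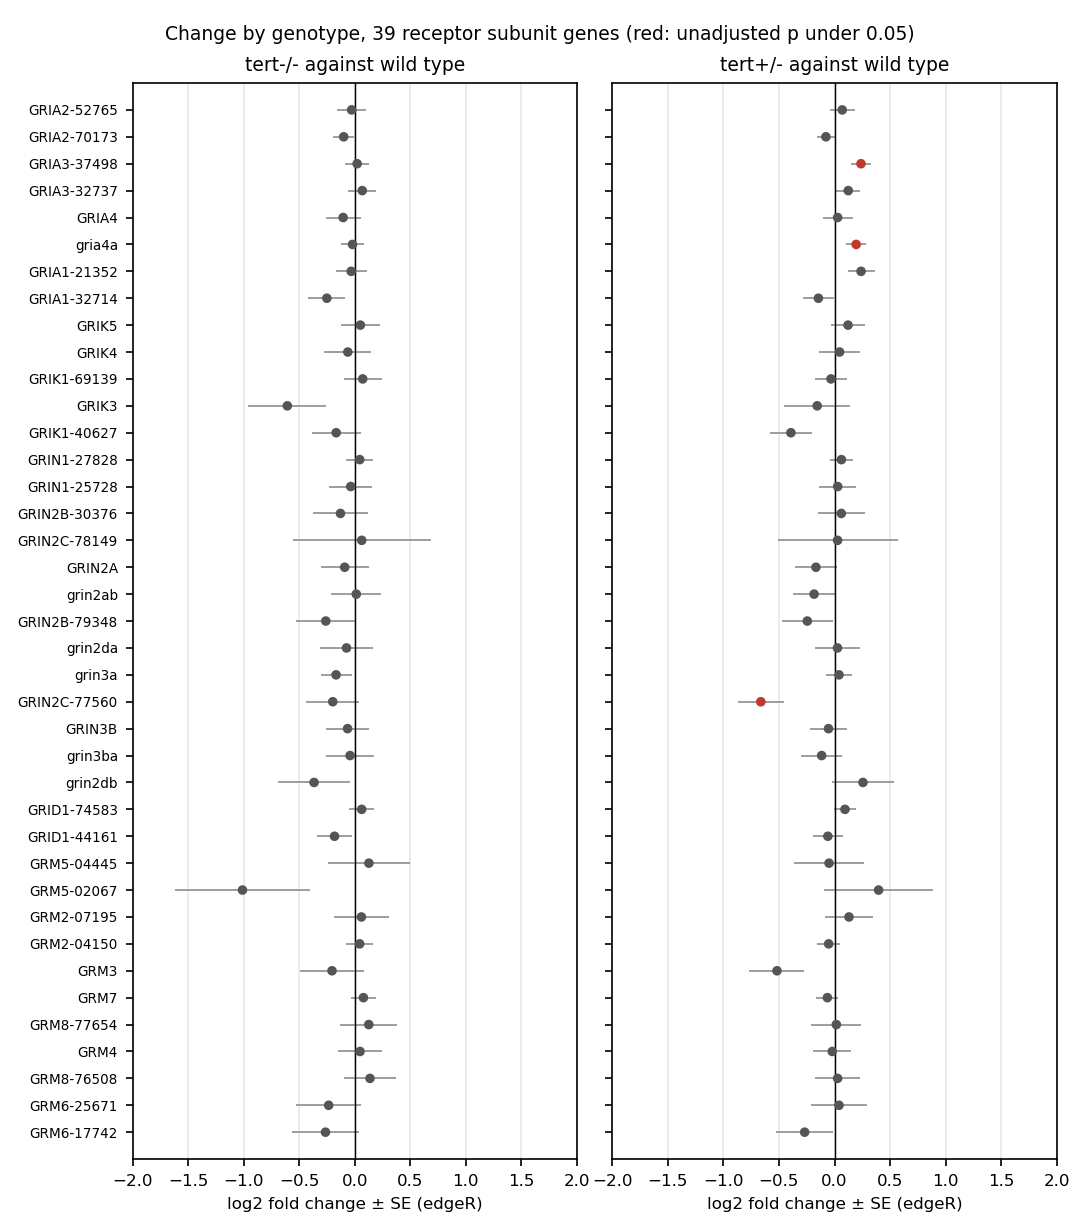
Fold change (log2, with a standard error derived from edgeR's F statistic as bars) of the 39 receptor subunit genes in tert-/- brains (left panel) and tert+/- brains (right panel) against wild type, with unadjusted p under 0.05 in red. The left panel has no red point and the right panel has 3, GRIA3-37498 and gria4a to the right of 0 and GRIN2C-77560 to the left.

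Precision set how small a change could have been seen. In data simulated from these libraries, the same fit recovered 38% of genes changed 2-fold and 79% of those changed 4-fold for tert-/- against wild type, and 65% and 79% for tert+/- against wild type. The changed genes were drawn from all genes tested, and no change under 2-fold was simulated. These shares are therefore not those of the receptor genes. The simulation changed 100 genes 2-fold and 100 genes 4-fold, which makes the adjusted threshold easier to pass than where few genes change. In the real comparisons edgeR called no gene. TERT, with a log2 fold change of 1.66 in tert-/- against wild type, had adjusted p = 0.573 in edgeR's quasi-likelihood test. The shares may therefore overstate what could be called in these data. Among the members, standard errors in tert-/- against wild type ran from 0.10 (GRIA2-70173) to 0.62 (GRIN2C-78149) on the log2 scale. A missing call does not show equal levels.

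AMPA receptor genes varied little between fish, with coefficients of variation of 8.43% to 16.3%. GRIA2-52765 (ENSDARG00000052765), which encodes the subunit that limits calcium entry in mammals, had 119, 136 and 137 RPKM in tert-/- brains, 115, 136, 144, 136 and 167 RPKM in tert+/- brains and 163, 118, 146, 121 and 118 RPKM in wild-type brains. All 3 genotypes overlapped. Its copy GRIA2-70173 (ENSDARG00000070173) had 99.6, 77.1 and 82.9 RPKM in tert-/- brains, 91.3, 94.7, 72.7, 92.3 and 88 RPKM in tert+/- brains and 94.1, 93.3, 93.2, 89.98 and 92.7 RPKM in wild-type brains, the smallest relative spread of the 39 genes. GRIA3-37498 (ENSDARG00000037498), a pore-forming subunit like the others, had 50.4, 74.4 and 62.9 RPKM in tert-/- brains, 66.7, 70.2, 74.1, 82.1 and 70.2 RPKM in tert+/- brains and 65, 61, 59.96, 61.8 and 60.2 RPKM in wild-type brains. Every tert+/- brain was above every wild-type brain, whereas tert-/- brains lay on both sides. The log2 fold change was 0.24 ± 0.09 in tert+/- against wild type (unadjusted p = 0.0232, adjusted p = 0.602), 0.02 ± 0.11 in tert-/- against wild type and -0.22 ± 0.11 in tert-/- against tert+/-, where it was -0.07 without tert-/- 1 and -0.36 without tert-/- 2. It was the one member without overlap in tert+/- against wild type. Intestinal and pancreatic RNA was also higher in every tert+/- library and skeletal muscle RNA in several of them, and their part in this difference was not tested.

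The AMPA receptor gene gria4a (ENSDARG00000037496) had 29.2, 32.1 and 31.2 RPKM in tert-/- brains, 37.2, 35.4, 36.1, 41.4 and 28.7 RPKM in tert+/- brains and 30.3, 31.3, 28.3, 35.1 and 31.1 RPKM in wild-type brains. Its fold change in tert+/- against wild type was 0.19 ± 0.09 (log2, unadjusted p = 0.0499, adjusted p = 0.645), and the groups overlapped, because tert+/- 5 was the second lowest of all libraries. Against tert+/-, tert-/- brains differed by -0.21 ± 0.10 (adjusted p = 0.975). GRIA1-21352 (ENSDARG00000021352) had 11.3, 13.1 and 15.1 RPKM in tert-/- brains, 13.7, 16, 15.2, 16.5 and 18 RPKM in tert+/- brains and 17.7, 12.1, 13.5, 12.4 and 11.6 RPKM in wild-type brains, and wild type 1 was above every tert+/- brain but tert+/- 5. At an adjusted p of 0.65, its log2 fold change was 0.24 ± 0.12 in tert+/- against wild type. The AMPA gene with the lowest level, GRIA1-32714 (ENSDARG00000032714), had 9.71, 11.2 and 10.8 RPKM in tert-/- brains, 8.12, 13.4, 8.73, 14.4 and 12.2 RPKM in tert+/- brains and 11.9, 12.3, 13.6, 11.8 and 13.2 RPKM in wild-type brains. Its 3 tert-/- values were below all wild-type values, and tert+/- brains spanned both. The log2 fold change of tert-/- against wild type was -0.25 ± 0.17 (unadjusted p = 0.156, adjusted p = 1). It was the one member without overlap in this comparison. Both remaining AMPA genes, GRIA3-32737 and GRIA4 (ENSDARG00000059368), ranged over 39.1 to 61.3 and 27.5 to 52.5 RPKM. All 8 log2 fold changes of tert-/- against tert+/- were below 0 for this class, from -0.27 to -0.02, and none passed the test even without adjustment. Over all genes the median was -0.003, and the 8 genes share the same libraries, so their directions are not independent.

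The 5 kainate receptor genes measured, which do not include GRIK2, had low levels. The highest was GRIK5 (ENSDARG00000101449), whose product in mammals needs a partner of the GRIK1 to GRIK3 kind to form a channel, with 9.38, 17 and 14.8 RPKM in tert-/- brains, 10.8, 17, 14, 16.5 and 13.7 RPKM in tert+/- brains and 12.4, 12.9, 12.8, 12.9 and 15.1 RPKM in wild-type brains. GRIK4 (ENSDARG00000026753), of the same kind, had 5.06, 8.15 and 7.06 RPKM in tert-/- brains, 4.55, 8.48, 7.62, 9.63 and 6.12 RPKM in tert+/- brains and 5.96, 7.88, 6.85, 7.41 and 7.15 RPKM in wild-type brains. In both genes the lowest values belonged to tert-/- 1 and tert+/- 1, the libraries with most cerebellar RNA. GRIK1-69139 (ENSDARG00000069139), which can form channels by itself in mammals, had 4.48, 6.91 and 6.72 RPKM in tert-/- brains, 4.54, 5.89, 4.76, 6.78 and 6.11 RPKM in tert+/- brains and 5.42, 5.23, 5.56, 5.41 and 7.09 RPKM in wild-type brains, again with the lowest values in those 2 libraries. Its copy GRIK1-40627 (ENSDARG00000040627) was the lowest of the class, with 1.46, 1.06 and 0.939 RPKM in tert-/- brains, 0.653, 1.03, 0.905, 1.07 and 1.29 RPKM in tert+/- brains and 1.14, 1.39, 1.29, 1.15 and 1.52 RPKM in wild-type brains. In tert+/- against wild type its log2 fold change was -0.39 ± 0.19 (unadjusted p = 0.0618, adjusted p = 0.647), with overlap between the groups. GRIK3 (ENSDARG00000077715) had 3.35, 1.81 and 2.37 RPKM in tert-/- brains, 1.63, 4.19, 2.38, 4.31 and 4.64 RPKM in tert+/- brains and 3.28, 2.56, 4.84, 3.3 and 5.13 RPKM in wild-type brains. Its log2 fold change in tert-/- against wild type was -0.61 ± 0.35 (unadjusted p = 0.107, adjusted p = 1), the lowest p of the 41 members among those below 0 in this comparison. The tert-/- and wild-type ranges overlapped, with tert-/- 1 above 3 of the 5 wild-type brains.

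NMDA receptors contain GRIN1, and its 2 genes ranked 1 and 3 among the 39. GRIN1-27828 (ENSDARG00000027828) had 236, 299 and 272.2 RPKM in tert-/- brains, 211, 270.8, 273.1, 342 and 265.0 RPKM in tert+/- brains and 255.4, 265.7, 260.3, 251.7 and 271.6 RPKM in wild-type brains. The wild-type brains spanned a range of 252 to 272 RPKM that lay inside those of both mutant genotypes. GRIN1-25728 (ENSDARG00000025728) had 151, 97.3 and 117 RPKM in tert-/- brains, 187, 104, 131, 117 and 97.3 RPKM in tert+/- brains and 129.7, 124, 119, 141 and 109.5 RPKM in wild-type brains. The libraries lowest for the first gene, tert+/- 1 and tert-/- 1, were the highest for the second. Neither gene passed the test, with log2 fold changes of 0.05 ± 0.12 and -0.04 ± 0.19 in tert-/- against wild type.

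The glutamate-binding GRIN2 subunits set channel kinetics and magnesium block. GRIN2B-30376 (ENSDARG00000030376), the highest of them, had 15.5, 24.6 and 25.9 RPKM in tert-/- brains, 15.9, 25, 23.9, 24.3 and 36.2 RPKM in tert+/- brains and 31, 19.9, 27.1, 19.2 and 22.8 RPKM in wild-type brains. It was highest in tert+/- 5 and wild type 1, the libraries with most telencephalic RNA, and the genotypes overlapped. GRIN2C-78149 (ENSDARG00000078149), whose mammalian counterpart is the GRIN2 subunit of cerebellar granule cells, had 31.4, 3.97 and 14.9 RPKM in tert-/- brains, 39.1, 14.4, 12.5, 4.47 and 11.2 RPKM in tert+/- brains and 19.6, 16.3, 15.8, 18.4 and 10.01 RPKM in wild-type brains. The highest library was 9.84 times the lowest, and both ends of the range were mutant brains. Its fold change was accordingly imprecise, at 0.06 ± 0.62 in tert-/- and 0.03 ± 0.54 in tert+/- against wild type on the log2 scale, where adjusted p was 1 in the first comparison and 0.994 in the second. The copy GRIN2C-77560 (ENSDARG00000077560) had 2.65, 1.36 and 2.12 RPKM in tert-/- brains, 1.24, 1.47, 1.57, 1.94 and 1.16 RPKM in tert+/- brains and 2.9, 2.22, 1.74, 2.03 and 2.83 RPKM in wild-type brains. It had the lowest p of any member in tert+/- against wild type, at 0.00701 unadjusted and 0.602 adjusted, with a log2 fold change of -0.66 ± 0.21. Of the tert+/- brains 4 lay below every wild-type brain and tert+/- 4 did not. The difference of tert-/- from tert+/- was 0.47 ± 0.24 (adjusted p = 0.975), and 0.24 without tert-/- 1.

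A pair of GRIN2 genes had near-equal levels. GRIN2A (ENSDARG00000034493), a subunit of mature mammalian forebrain synapses, had 13.3, 12.7 and 11.4 RPKM in tert-/- brains, 11.1, 11, 10.1, 18.4 and 8.47 RPKM in tert+/- brains and 9.65, 15.1, 12.4, 14.7 and 14.5 RPKM in wild-type brains, and was highest in tert+/- 4, the library with the lowest telencephalic and cerebellar marker levels. Its copy grin2ab (ENSDARG00000070543) had 10.1, 14 and 12.5 RPKM in tert-/- brains, 6.89, 10.8, 8.47, 11.6 and 15.3 RPKM in tert+/- brains and 12.3, 13.6, 14.3, 9.09 and 11.1 RPKM in wild-type brains, with overlap of all genotypes. grin2db (ENSDARG00000070620) was the lowest NMDA gene, with 0.686, 0.748 and 1.06 RPKM in tert-/- brains, 0.952, 0.948, 1.2, 1.87 and 1.42 RPKM in tert+/- brains and 0.921, 0.632, 0.964, 1.01 and 1.82 RPKM in wild-type brains. GRIN2B-79348, grin2da, grin3a, GRIN3B and grin3ba make up the class, with means of 9.44, 4.13, 3.95, 1.64 and 1.29 RPKM. The last 3 encode GRIN3 subunits, which bind glycine. For these 5 genes no unadjusted p was under 0.05 in any comparison.

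Both GRID1 genes encode a delta receptor. GRID1-74583 (ENSDARG00000074583) had 11.2, 10.3 and 11.8 RPKM in tert-/- brains, 10.7, 12.9, 9.84, 10.3 and 13.1 RPKM in tert+/- brains and 11.5, 11.5, 11.2, 9.58 and 9.5 RPKM in wild-type brains. GRID1-44161 (ENSDARG00000044161) had 5.88, 8.35 and 7.69 RPKM in tert-/- brains, 5.49, 8.68, 7.89, 9.55 and 8.1 RPKM in tert+/- brains and 7.36, 8.72, 8.83, 7.99 and 8.49 RPKM in wild-type brains, and was lowest in tert+/- 1 and tert-/- 1. All genotypes overlapped in both genes. For GRID1-44161 the log2 fold change was -0.18 ± 0.16 in tert-/- and -0.06 ± 0.14 in tert+/- against wild type, with unadjusted p of 0.27 and 0.664.

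Of the group I metabotropic receptors, GRM5-04445 (ENSDARG00000004445), the receptor of forebrain neurons and glia in mammals, had 16.6, 22.3 and 20.8 RPKM in tert-/- brains, 6.83, 25.6, 14.8, 14.9 and 26 RPKM in tert+/- brains and 17.2, 14, 27.8, 11.9 and 20.1 RPKM in wild-type brains, lowest in tert+/- 1. The second gene, GRM5-02067 (ENSDARG00000102067), had the lowest level of the 39, with 0.162, 0.14 and 0.117 RPKM in tert-/- brains, 0.133, 0.171, 0.32, 0.436 and 0.814 RPKM in tert+/- brains and 0.372, 0.106, 0.208, 0.226 and 0.515 RPKM in wild-type brains, from 11 to 73 counts per library. Its log2 fold change was -1.01 ± 0.61 in tert-/- against wild type (unadjusted p = 0.12) and -1.41 ± 0.61 against tert+/- (unadjusted p = 0.0387, adjusted p = 0.975). Counts this low and overlapping groups leave the size of that difference uncertain.

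Group II had 3 genes. GRM2-07195 (ENSDARG00000007195) had 19.3, 28.3 and 28.1 RPKM in tert-/- brains, 18, 23.1, 27.2, 20.3 and 43.6 RPKM in tert+/- brains and 30.4, 22.1, 25.7, 20.6 and 22 RPKM in wild-type brains. The highest values were those of tert+/- 5 and wild type 1, the libraries richest in telencephalic markers. Its copy GRM2-04150 (ENSDARG00000004150) was far steadier, at 7.8 to 10.9 RPKM over the 13 libraries. GRM3 (ENSDARG00000031712), which in mammals is also found in astrocytes, had 5.7, 3.54 and 4.12 RPKM in tert-/- brains, 2.08, 3.85, 2.54, 3.46 and 5.97 RPKM in tert+/- brains and 5.7, 3.99, 5.68, 4.72 and 5.56 RPKM in wild-type brains. In tert+/- against wild type its log2 fold change was -0.52 ± 0.25 (unadjusted p = 0.0568, adjusted p = 0.647), and tert+/- 5 was above all wild-type brains while the other 4 were below them. Against tert+/-, tert-/- brains had 0.31 ± 0.28 (unadjusted p = 0.287), which was 0.11 without tert-/- 1 and 0.58 without tert+/- 5.

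Group III was led by GRM7 (ENSDARG00000100267), a presynaptic receptor with low affinity for glutamate in mammals, with 39.9, 28.4 and 30.3 RPKM in tert-/- brains, 34, 28.9, 26.7, 29.9 and 29.2 RPKM in tert+/- brains and 29.3, 34.3, 29.7, 33.3 and 28.9 RPKM in wild-type brains. The tert-/- 1 brain was the highest of all 13. The lead of GRM7 rests on division by its recovered length of 2052 bases, against 4682 bases for GRM4. Counts per library were 1224 to 2641 for GRM7 and 1694 to 3868 for GRM4. The log2 fold change of GRM7 was 0.08 ± 0.11 in tert-/- against wild type and 0.14 ± 0.11 against tert+/-, and without tert-/- 1 these were -0.07 and -0.01. GRM8-77654 (ENSDARG00000077654) had 29.3, 19.1 and 21.3 RPKM in tert-/- brains, 36.7, 17.9, 18.8, 19.6 and 14.5 RPKM in tert+/- brains and 18.2, 21.9, 20.7, 27 and 18.5 RPKM in wild-type brains, and tert+/- 1 and tert-/- 1 were the highest of their genotypes. GRM4 (ENSDARG00000040156), a presynaptic receptor, had 17, 26.4 and 20.1 RPKM in tert-/- brains, 15.2, 21.8, 19.5, 27.6 and 16.8 RPKM in tert+/- brains and 15.8, 24.4, 18.4, 21.5 and 22.3 RPKM in wild-type brains, and here the same libraries were the lowest of theirs. GRM6-17742 (ENSDARG00000017742) was the lowest of the class, with 1.99, 2.89 and 3.12 RPKM in tert-/- brains, 2.31, 3.1, 1.17, 4.18 and 2.51 RPKM in tert+/- brains and 2.71, 3.53, 3.22, 3.16 and 3.36 RPKM in wild-type brains, and its copy GRM6-25671 (ENSDARG00000025671) ranged over 3.05 to 9.37 RPKM. GRM6 is known as the glutamate receptor of retinal ON bipolar cells. In wild type 5, the library with most photoreceptor RNA, the GRM6 genes had 3.36 and 5.05 RPKM, inside the range of the other wild-type brains. GRM8-76508 (ENSDARG00000076508) had 9.67, 18.2 and 12.1 RPKM in tert-/- brains, 9.07, 13.6, 11.7, 17.5 and 9.73 RPKM in tert+/- brains and 9.29, 13.9, 11.3, 13.7 and 12.2 RPKM in wild-type brains. Libraries tert-/- 2 and tert+/- 4 were the highest. The log2 fold change of 0.14 ± 0.23 in tert-/- against wild type became -0.15 without tert-/- 2. None of the 6 genes had an unadjusted p under 0.05 for genotype.

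The genes without a receptor subunit, GRINA (ENSDARG00000101317) and grinab (ENSDARG00000052746), belong to a family of membrane proteins linked to cell survival. GRINA averaged 39.2 ± 5.02 RPKM in tert-/- brains, 37.9 ± 4.9 RPKM in tert+/- brains and 41.6 ± 4.2 RPKM in wild-type brains. For grinab the values were 20.4, 22.3 and 20.1 RPKM in tert-/- brains, 21.7, 18.4, 23.1, 21.1 and 16.7 RPKM in tert+/- brains and 19.3, 20.4, 18.8, 20.6 and 15.5 RPKM in wild-type brains, and its log2 fold change of 0.15 ± 0.12 in tert-/- against wild type had the lowest p of the members above 0, at 0.234 unadjusted and 1 adjusted.

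Summed by class as RPKM over the genes described here, levels in both mutant genotypes differed from wild type by less than the spread between fish. AMPA receptor genes held 38.0% ± 0.72 of the receptor level in tert-/- brains, 39.7% ± 0.87 in tert+/- brains and 38.8% ± 0.98 in wild-type brains (SD, n = 3, 5 and 5). For NMDA receptor genes this was 43.3% ± 1.34 in tert-/-, 42.7% ± 1.91 in tert+/- and 43.1% ± 0.39 in wild-type brains. Group II metabotropic genes held 3.33, 3.72 and 3.67% in tert-/- brains, 2.68, 3.24, 3.58, 2.65 and 5.07% in tert+/- brains and 3.98, 3.37, 3.6, 3.28 and 3.26% in wild-type brains, highest in tert+/- 5. The log2 class ratios to wild type lay between -0.05 and 0.12, and none of the 14 exceeded its pooled SD. At this size the sign depended on the scale, and 4 of them changed sign and moved by more than this SD when levels were computed as TPM (counts divided by gene length and scaled to the same total in every library), such as AMPA genes in tert+/- brains with 0.08 in the main calculation and -0.08 as TPM. As TPM, the NMDA ratios of both mutant genotypes and the AMPA ratio of tert+/- brains were larger than the pooled SD of the RPKM levels. The pooled SD of the TPM levels was not computed, so these ratios were not set against the spread on their own scale. No test was run on class sums.

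**Figure D3:**
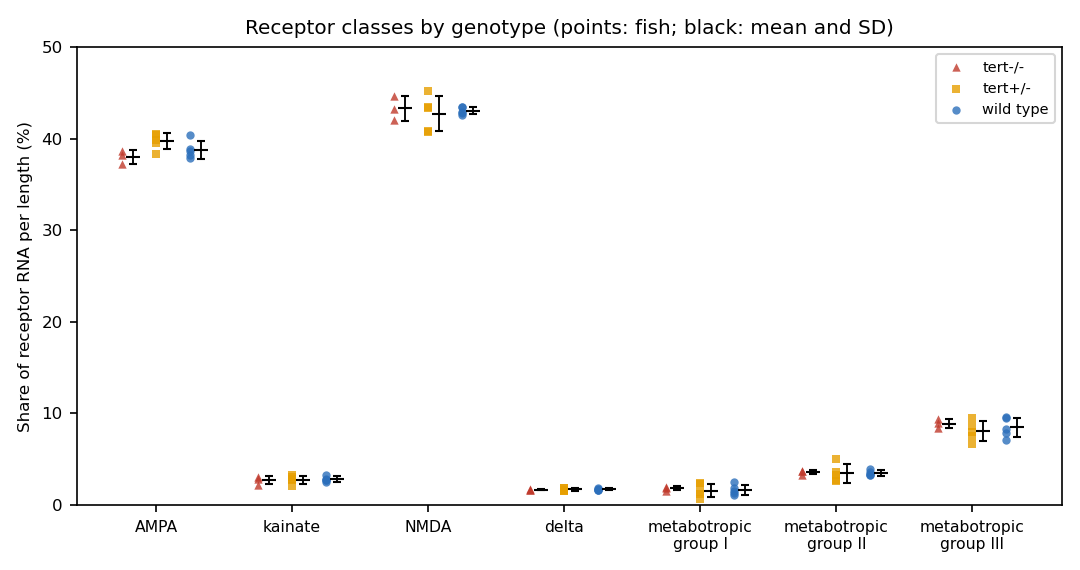
Share of the summed receptor level (percent, from RPKM) held by each receptor class, with 1 point per fish and black marks for the mean and SD of each genotype, in the order tert-/-, tert+/- and wild type. NMDA and AMPA genes hold between 37.2% and 45.2% in each fish and no other class exceeds 9.58%.

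Copies of the same gene were used unequally, and this was stable for some pairs. Over 16 pairs the log2 ratio of the higher to the lower copy was largest for GRM5, at 6.20 ± 0.93 (SD, n = 13), followed by GRIN2C at 2.88 ± 0.96 and GRIK1 at 2.35 ± 0.36. The higher copy was higher in 13 of 13 libraries in each of these pairs. The ratios of GRIN2A to grin2ab at 0.12 ± 0.46, GRIA4 to gria4a at 0.17 ± 0.22 and GRIA1-21352 to GRIA1-32714 at 0.30 ± 0.31 were the nearest to 0. In these, the first copy was higher in 8, 11 and 10 of 13 libraries. The GRIN2A pair ranged over -0.85 to 0.69 and so turned round between brains. For GRIN1 the ratio of GRIN1-27828 to GRIN1-25728 was 0.65, 1.62 and 1.21 in tert-/- brains, 0.18, 1.38, 1.06, 1.54 and 1.44 in tert+/- brains and 0.98, 1.1, 1.13, 0.83 and 1.31 in wild-type brains. The GRM5 ratio averaged 7.15 ± 0.42 in tert-/- brains, 5.71 ± 0.90 in tert+/- brains and 6.13 ± 0.86 in wild-type brains (SD, n = 3, 5 and 5), and the groups overlapped. How reads that match both copies were treated was not given in the sources used here, so the split within a pair carries that uncertainty.

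**Figure D4:**
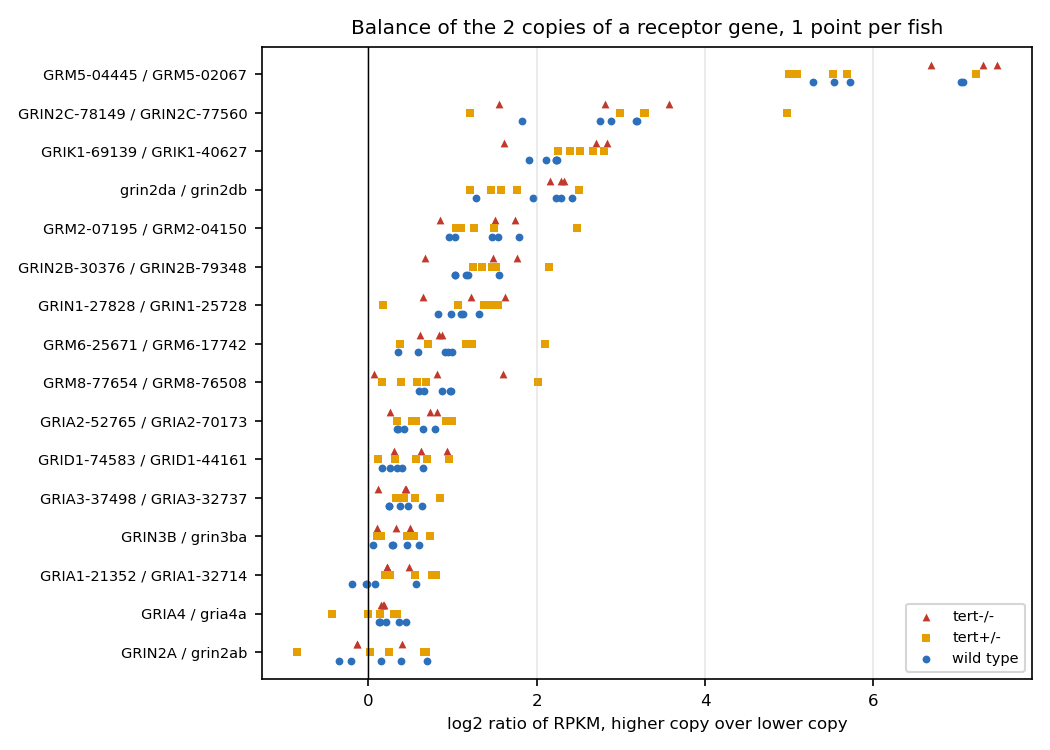
Log2 ratio of RPKM of the higher over the lower copy for the 16 pairs, with 1 point per fish and the genotypes as triangles (tert-/-), squares (tert+/-) and circles (wild type). The GRM5 pair lies between 5.00 and 7.47, and the 3 lowest pairs have points on both sides of 0.

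Some receptor genes varied with the cerebellar RNA of the library. The relation of each gene to the cerebellar marker level was fitted across all genes beside genotype, a model chosen after the levels of the libraries had been seen. In this edgeR fit 10 of 41 members (24.4%) had a slope at adjusted p under 0.05, against 4.74% of all genes tested. The slope is the log2 change per unit of marker level, which ranged from -1.80 to 1.11. Of the 41 members, 1 rose with cerebellar RNA, against 3.6% of all genes, and 9 fell, against 1.14% of all genes. No test of the members as a list was run. All genes tested include genes with few counts, and these shares were not matched for count level or precision. The part of precision in the higher share of members was not tested. The members share the same 13 libraries, so their slopes are not independent.

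GRIN2C-78149 rose by 1.15 ± 0.10 (adjusted p = 4.3e-05). Its values were 31.4 and 39.1 RPKM in tert-/- 1 and tert+/- 1, against 3.97 and 4.47 RPKM in tert-/- 2 and tert+/- 4. Its copy GRIN2C-77560 had a slope of 0.01 ± 0.12, which did not pass the test.

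Among the genes that fell, GRIN1-27828 had a slope of -0.19 ± 0.03 (adjusted p = 0.00396). Its copy GRIN1-25728 had a slope of opposite sign, 0.25 ± 0.07, which did not pass (adjusted p = 0.0565). The GRM8 genes behaved likewise, with -0.35 ± 0.07 for GRM8-76508 (adjusted p = 0.0136) and 0.28 ± 0.10 for GRM8-77654 (adjusted p = 0.144). Kainate receptor genes were 3 of the 9, with -0.27 ± 0.06 for GRIK5, -0.32 ± 0.07 for GRIK4 and -0.25 ± 0.06 for GRIK1-69139. The others were GRM4 at -0.29 ± 0.06, GRID1-44161 at -0.24 ± 0.05, GRIA4 at -0.22 ± 0.05 and GRIA1-32714 at -0.23 ± 0.06.

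**Figure D5:**
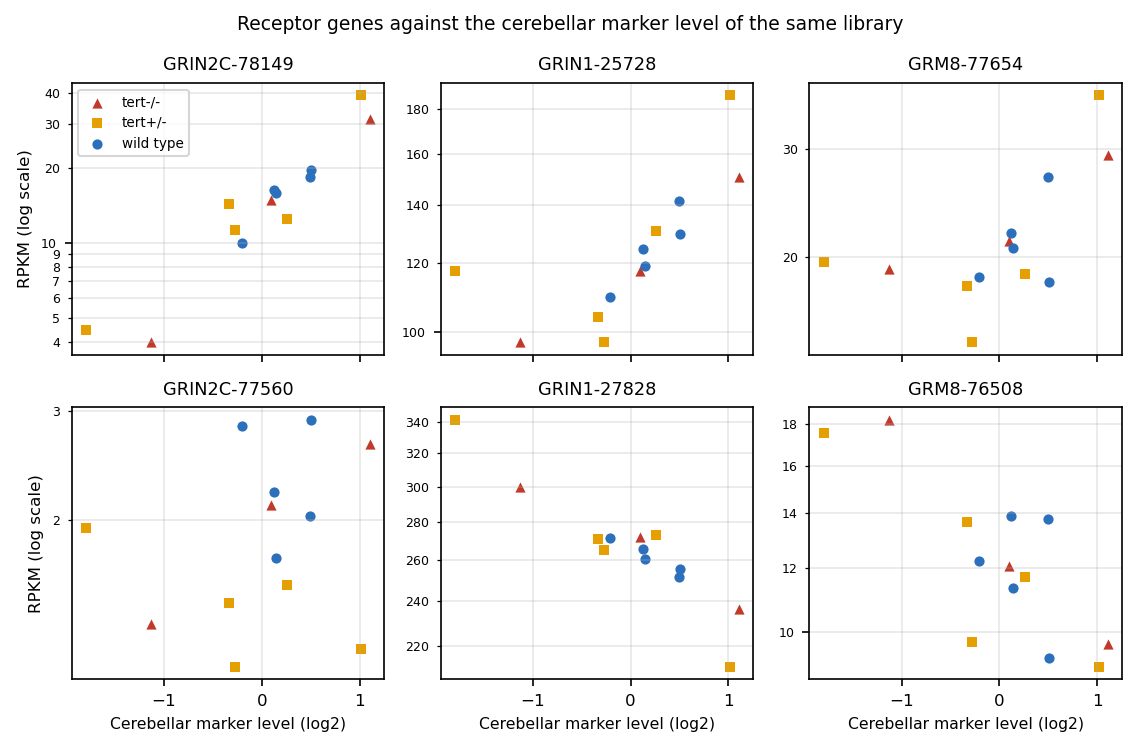
Level in RPKM (log axis) of the GRIN2C, GRIN1 and GRM8 pairs against the cerebellar marker level of the same library (log2, centred), with 1 point per fish and genotype by shape and colour. In each pair the upper panel slopes up with the marker level, and the lower panel slopes down for GRIN1 and GRM8 and has no clear slope for GRIN2C. Without tert-/- 1 and tert+/- 1, the slopes of GRIN1-25728 and GRM8-77654 were 0.09 ± 0.08 and 0.005 ± 0.10.

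Most of these calls were lost without the libraries at the cerebellar end. Without tert-/- 1 and tert+/- 1, 1 member was called, against 0.521% of all genes tested. It was GRIN2C-78149, with a slope of 1.01 ± 0.15 (adjusted p = 0.016). GRIN1-27828 then had -0.17 ± 0.04 (adjusted p = 0.173). The copies with a rising slope fell to 0.09 ± 0.08 for GRIN1-25728 (adjusted p = 0.785) and 0.005 ± 0.10 for GRM8-77654 (adjusted p = 0.996). Slopes of about the same size but with larger errors were left for GRM8-76508 at -0.35 ± 0.11, GRM4 at -0.30 ± 0.10, GRIA4 at -0.23 ± 0.06 and GRIA1-32714 at -0.22 ± 0.08, and smaller slopes for GRID1-44161 at -0.14 ± 0.05, GRIK5 at -0.15 ± 0.06, GRIK4 at -0.20 ± 0.09 and GRIK1-69139 at -0.20 ± 0.08. Leaving out one library at a time gave 2 to 12 called members, with 2 without tert+/- 1, 4 without tert-/- 1, 5 without tert-/- 2 and 6 without tert+/- 4. GRIN2C-78149 and GRIN1-27828 were called in all 13 of these fits, the other 8 in 6 to 11 of them. Without the 2 libraries with least cerebellar RNA, 7 members were called, 4 of them among the 10, against 4.34% of all genes tested. In that fit GRIN1-25728 had 0.55 ± 0.07 and GRM8-77654 0.69 ± 0.14, so the size of their slopes depended on the libraries kept.

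Telencephalic RNA was examined in the same way. No member had an adjusted p under 0.05 in edgeR, where 0.279% of all genes did, and 9 of 41 (21.95%) had an unadjusted p under 0.05, against 9% of all genes. Of these, GRM2-07195 had the largest slope, 0.32 ± 0.06 (adjusted p = 0.0709), followed in size by GRIN2A at -0.28 ± 0.06 (adjusted p = 0.0709) and GRIN2B-30376 at 0.26 ± 0.08 (adjusted p = 0.278). Without wild type 1 and tert+/- 5, the libraries with most telencephalic RNA, GRM2-07195 had 0.19 ± 0.08 and GRIN2A -0.26 ± 0.08. In the same edgeR fit GRIN2B-30376 had 0.16 ± 0.12, and adjusted p was 0.9999 for all of these genes. As for the cerebellar level, the shares of members and of all genes were not matched for count level, and the members share the libraries.

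Genes that act with the receptors were described in 8 lists, and 0 genes of these lists were called in any comparison. Vesicular glutamate transporters (5 genes), which load glutamate into vesicles, had no gene at unadjusted p under 0.05 in edgeR. The same held for the uptake transporters that clear it (7 tested), for enzymes and transporters of the glutamine cycle (13 tested) and for genes of the NMDA co-agonists glycine and D-serine (8 tested). One vesicular transporter gene, SLC17A7 (ENSDARG00000016480), had 186, 4.31 and 62 CPM in tert-/- brains, 125, 51.2, 34.8, 1.67 and 72 CPM in tert+/- brains and 101, 71.8, 77.6, 84.2 and 45.5 CPM in wild-type brains. It was highest in tert-/- 1 and tert+/- 1 and lowest in tert+/- 4 and tert-/- 2, the libraries at both ends of the cerebellar markers, and it was named after its values were seen. It is not one of those markers, although cbln12 and both ITPR1 genes stand in these lists as well as among the markers. The other vesicular transporter genes did not share its pattern. Each was higher in tert+/- 4 than in tert+/- 1, and between tert-/- 1 and tert-/- 2 they went both ways. The second SLC17A7 gene (ENSDARG00000090106) had 2.25 CPM in tert+/- 1 and 5.2 CPM in tert+/- 4. In tert-/- 1 and tert-/- 2 it had 2.6 and 1.66 CPM. The centred log2 mean of the vesicular transporter list was -0.41 in tert+/- 1 and -0.46 in tert+/- 4.

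Of the 24 auxiliary proteins of AMPA and kainate receptors tested, ABHD6 (ENSDARG00000060756) alone had an unadjusted p under 0.05, in tert+/- against wild type, where 7.74% of all genes did. It had 2.67, 1.63 and 2.29 CPM in tert-/- brains, 1.13, 1.28, 1.61, 2.16 and 1.91 CPM in tert+/- brains and 2.53, 2.42, 2.88, 2.43 and 2.54 CPM in wild-type brains. The log2 fold change was -0.66 ± 0.20 (unadjusted p = 0.00618, adjusted p = 0.602), and all tert+/- brains were below all wild-type brains (background 1.7%). Of 29 postsynaptic scaffold genes, homer3b had -0.32 ± 0.13 in tert+/- against wild type and PICK1, which binds AMPA receptor tails in mammals, 0.70 ± 0.32 in tert-/- against tert+/-. Of 16 kinases and regulators, camk2g1 alone had an unadjusted p under 0.05 in both comparisons with tert+/- brains, with a log2 fold change of 0.16 ± 0.07 in tert+/- against wild type and -0.19 ± 0.08 in tert-/- against tert+/-. Of 12 ligands of delta receptors and their neurexin partners, CBLN4 had -0.68 ± 0.30 in tert+/- against wild type and cbln2a -1.52 ± 0.66 in tert-/- against tert+/-. For these 5 genes unadjusted p lay between 0.0251 and 0.0477 and adjusted p at 0.604 or above. Each was the only gene of its list at unadjusted p under 0.05 in the comparison named. Of all genes, 7.74% had such a p in tert+/- against wild type and 4.62% in tert-/- against tert+/-. The median log2 fold changes of the 8 lists lay between -0.19 and 0.06 in tert-/- against wild type and between -0.16 and 0.04 in tert+/- against wild type, beside 0.00 over all genes.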

How the data were processed

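Total RNA from 13 zebrafish brains was sequenced as TruSeq libraries. According to the submitters' processing notes, reads were made with bcl2fastq 1.8.4, aligned to GRCz10 with STAR 2.4.1d and counted with featureCounts 1.4.6-p4. The annotation release, the strand setting and the handling of reads that match several genes are not given in the sources used here. The counts deposited by the authors are raw whole-number counts per Ensembl gene, and all 13 columns were matched to samples by title. The deposited RPKM are counts per kilobase scaled to library size, but the totals had been recycled along the rows. Dividing by the proper total left 7.96% of 113226 values (8891 genes) within 0.2% of 1 length per gene, whereas recycled totals left 100%. Gene lengths were recovered from this, and RPKM were recomputed from the counts, these lengths and totals scaled by TMM. No gene coordinates or sequences were used.

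Tests used edgeR 4.0.16 (R 4.3.3, quasi-likelihood, two-sided) on the counts of all 13 libraries, with TMM factors and filterByExpr at a minimum count of 10, which kept 20064 genes. The threshold was an adjusted p of 0.05 (Benjamini-Hochberg over all genes). Fold changes and slopes are edgeR estimates on a log2 scale. Their standard errors were derived from the test, as the absolute estimate divided by the square root of its F statistic. DESeq2 1.42.0 was an alternative. In data simulated with 200 changed genes, the fit for tert-/- against wild type made 8 false calls, that for tert+/- against wild type 16, and the cerebellar slope recovered 6% of genes with a slope of 0.25 and 40% with 0.5. Symbols were taken from a table of Ensembl gene names, which named 26269 genes (81.8%). Marker levels are means of log2 CPM over a list (prior count of 2), centred over the libraries. Lists matched names with the copy letter removed where needed, so that paralogues entered (14 genes for 12 cerebellar names). Members were left out of all lists, so the retinal bipolar markers as used do not contain GRM6. Values per library are printed for the 3 highest genes and the lowest gene of each class, for the 3 lowest p in each direction and comparison, for the 3 most unequal and 3 most equal pairs, and for the lowest p of the lists. Some genes of the receptor classes and of the pathway lists are not reported here, and counts and sums leave them out. The members and lists were chosen with earlier results of these data known. Alternatives were another normalisation, tool, filter and length treatment, runs of sample numbers in the titles as a covariate, libraries left out, and, chosen after seeing the data, those that concern cerebellar or photoreceptor RNA.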

Additional observations from a re-analysis of the deposited data

Results flagged for a closer look

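Among 80 groups of 5 libraries examined, 5 had a library farther from the others than Dixon's 95% limit of 0.71 allows. Chance alone gives about 1 such group in 20, so the count of 5 is near that rate. The groups also share libraries and are not independent. Of the 5, 3 concern tert+/- brains. GRIN2C-78149 had 39.1 RPKM in tert+/- 1, against 4.47 to 14.4 RPKM in the other tert+/- brains, and GRM8-77654 had 36.7 RPKM there, against 14.5 to 19.6 RPKM. This library had the highest cerebellar marker level of its genotype. GRIN2A had 18.4 RPKM in tert+/- 4, against 8.47 to 11.1 RPKM in the others, and this library had the lowest levels of telencephalic and cerebellar markers. In wild type 5, GRIK5 had 15.1 RPKM, against 12.4 to 12.9 RPKM in the other wild-type brains, and GRIK1-69139 had 7.09 RPKM, against 5.23 to 5.56 RPKM. Wild type 5 had the most photoreceptor RNA and the lowest cerebellar marker level of its genotype. The part of these markers in the outlying values was not tested.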

How the results depend on the processing

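The count of 0 called members for genotype held under every alternative run. Counts at an unadjusted p under 0.05 moved. In tert-/- against wild type, main count 0, they were 2 with the cerebellar level as a covariate, 1 with only the compared groups fitted, 1 with title runs as a covariate, 3 without the 2 libraries with most cerebellar RNA, and 0 with any library left out. In tert+/- against wild type, main count 3, they were 5 with the covariate, 1 without the 3 libraries with most photoreceptor RNA, and 2 to 6 with one left out. In tert-/- against tert+/-, main count 1, they were 2 with only the compared groups, 2 without the 2 least cerebellar, 2 without the 2 most cerebellar and 2 without the photoreceptor-rich libraries, and 0 to 4 with one left out.

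Without the 2 most cerebellar libraries, fold changes of tert-/- turned round for GRM7 against wild type (-0.075) and GRM3 against tert+/- (-0.043), and without the 2 least cerebellar for GRM8-76508 against wild type (-0.16). With one library left out, GRM7 ranged over -0.070 to 0.18 against wild type and -0.012 to 0.24 against tert+/-, and GRM8-76508 over -0.15 to 0.34 against wild type. On the cerebellar level, 1 member was called without the most cerebellar libraries, and 2 to 12 with one left out.

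Without division by length, AMPA genes held 36.2%, kainate 2.26%, NMDA 49.4% and group III genes 5.84%, and with GRINA and grinab included AMPA held 37.0% and NMDA 40.8%. As TPM, log2 class ratios to wild type were -0.051 (NMDA, tert-/-), -0.082 (AMPA), -0.13 (NMDA) and -0.13 (GRID1 genes, all tert+/-), against 0.001, 0.077, 0.030 and 0.029 in the main calculation. The pooled SD of the RPKM levels was 0.015 for NMDA with tert-/-, and 0.0795 for AMPA and 0.071 for NMDA with tert+/-, smaller than the size of these TPM ratios. No pooled SD was computed for the TPM levels. Copy ratios without length were 2.82 for GRIK1, 1.33 for GRIA1 and 0.94 for GRIN2A. The causes were not tested. The other 453 alternative values of main results moved by less than the spread between fish (counts by at most 1.5 times), though 11 of 14 class ratios, all near 0, changed sign with some library left out. The other 312 values of single genes kept their direction and missed the threshold as before, but did not always keep their size. With one library left out, 9 of 18 fold changes moved by over 1.5 times in some fit. Beside those above, these were GRIA3-37498 (-0.36 to -0.073), GRIN2C-77560 (0.24 to 0.69), GRM3 (0.11 to 0.58) and GRM5-02067 (-0.90 without tert+/- 5) in tert-/- against tert+/-, GRM3 (-0.78 without tert+/- 5) in tert+/- against wild type and grinab (0.082 without wild type 5) in tert-/- against wild type. No paired analysis was possible because replicate numbers follow the order of the records and pair no fish. For tert-/- against wild type, with 3 tert-/- fish, the simulation recovered 38% of 2-fold changes in genes drawn from all those tested. Many genes were changed at once in it, so this share may be too high for these data. GRM5-02067 had at most 73 counts.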
